A study of Mus musculus with 8 samples.

Results

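The transcripts described are those of 9 genes of the NF-kappaB system: the subunits Nfkb1, Nfkb2, Rel, Rela and Relb, the inhibitors Nfkbia and Nfkbie, the nuclear inhibitor-like protein gene Bcl3, and Birc3. They were chosen by symbol, and all 9 were among the 16902 genes listed in both tables of normalised read counts. The RNA came from epidermis that had been separated from the dermis of CD1 mouse back skin with dispase, and polyadenylated RNA was sequenced. Mice were set apart by Ovol1, which encodes a zinc-finger transcription factor of epithelia, and by treatment with imiquimod (IMQ), an agonist of Toll-like receptors that is applied to mouse skin as a model of psoriasis-like inflammation. The 4 groups were IMQ-treated mice labelled Ovol1 -/-, IMQ-treated Ovol1 +/+ controls, untreated mice labelled Ovol1 -/-, and untreated Ovol1 +/- controls. The control genotype therefore differed between the treatments. Each group had 2 libraries, 1 from a female and 1 from a male. The labels do not say whether a library is 1 mouse or a pool, and give no age, dose or time of treatment in the sources used here, so the spread between libraries holds sex and sample together.

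The subunits pair into dimers that bind kappaB sites in DNA. Nfkb1 and Nfkb2 encode precursors that are processed into subunits without a transactivation domain, and Rel, Rela and Relb encode subunits that carry one. In resting cells the inhibitors encoded by Nfkbia (IkappaB alpha) and Nfkbie (IkappaB epsilon) hold dimers in the cytoplasm, and stimulation by cytokines or Toll-like receptor ligands leads to their phosphorylation and degradation. Several genes of the system, Nfkbia among them, are themselves targets of NF-kappaB and so form feedback loops. BCL-3 is a nuclear protein that binds homodimers of the Nfkb1 and Nfkb2 products, and the Birc3 product is a ubiquitin ligase that acts at tumour necrosis factor receptors. In epidermis the pathway is active in keratinocytes and in resident immune cells, and it is a known part of the psoriatic response.

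Each library held 28.6 to 43.1 M reads assigned to listed genes. Reads of Ovol1 went against the genotype label. Ovol1 had 13457 and 13076 normalised counts in the labelled Ovol1 -/- female and male under IMQ, against 7635 and 9556 in the controls. In untreated epidermis it had 27433 and 26601 in the labelled Ovol1 -/- libraries and 16629 and 14582 in the controls. Its log2 fold change, labelled Ovol1 -/- minus control, was 0.64 under IMQ (limma adjusted p = 0.0880) and 0.79 untreated (limma adjusted p = 0.346). A count per gene cannot tell a transcript that lacks exons from a whole one, so the label was not checked by it. Whether the reads come from a transcript of a changed allele or from exchanged labels was not tested, and exchanged labels would turn every genotype direction below. The groups are therefore called labelled knockouts. The markers of keratinocytes, the labelled tissue's main cell, were abundant in all 8 libraries, with Krt5, Krt14, Krt1 and Krt10 summing to between 15870 and 25890 CPM (reads scaled to a common library size). The summed dermal fibroblast markers were lower in the female than in the male of every group. They reached 61.6 CPM in the female and 1640 CPM in the male of the IMQ-treated labelled knockouts, and 228 and 2564 CPM in the IMQ-treated controls. Marker sums of several cell types also moved with the groups and are given in the sections below, and their part in the results was not tested. In bulk epidermis, more cells of one kind and more RNA per cell cannot be told apart.

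In the GENCODE vM21 annotation of GRCm38, Nfkb1 lies at chr3:135584655-135691547 (minus strand), Rel at chr11:23736847-23770970 (minus strand) and Birc3 at chr9:7848699-7873186 (minus strand). Nfkbia lies at chr12:55489410-55492647 (minus strand) and Nfkbie at chr17:45555703-45563169 (plus strand). Relb at chr7:19606217-19629438 (minus strand) and Bcl3 at chr7:19808462-19822770 (minus strand) are on the same chromosome, and so are Rela at chr19:5637483-5648130 (plus strand) and Nfkb2 at chr19:46304320-46312385 (plus strand). Ovol1 itself lies near Rela, at chr19:5549136-5560646 (minus strand).

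The promoters of these genes are shown first because kappaB motifs in them are the textbook basis of the feedback. RefSeq windows of 250 bases before to 50 bases after the transcription start (GRCm38.p6) were found for 7 of the 9 members. Those of Nfkb1 and Relb were not in that table. The kappaB consensus, searched on both strands, was in the windows of 5 of the 7 members, namely Bcl3, Nfkb2, Nfkbia, Nfkbie and Rel, and in 9.55% of the 27025 genes with a window. The overlapping shorter motif GGNNTTTCC was in 4 of the 7, those of Bcl3, Nfkb2, Nfkbia and Rel, and in 6.62% of all genes. Neither motif was found in the windows of Birc3 and Rela, which says only that these letters are not there. The sequences below are on the strand of the gene and cover the 120 bases before the start, with a further 12 bases for Bcl3, and capitals mark the bases of either motif.
Bcl3 (chr7:19822744-19822875, minus strand): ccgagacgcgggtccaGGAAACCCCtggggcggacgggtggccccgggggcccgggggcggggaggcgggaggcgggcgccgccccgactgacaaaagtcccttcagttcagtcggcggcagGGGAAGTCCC
Nfkbia (chr12:55492648-55492767, minus strand): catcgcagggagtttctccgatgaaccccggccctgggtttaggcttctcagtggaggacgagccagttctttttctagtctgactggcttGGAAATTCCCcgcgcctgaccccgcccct
Nfkb2 (chr19:46304617-46304736, plus strand): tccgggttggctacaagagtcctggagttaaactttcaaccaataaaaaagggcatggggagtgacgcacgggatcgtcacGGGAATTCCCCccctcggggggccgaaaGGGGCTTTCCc
Rel (chr11:23770970-23771089, minus strand): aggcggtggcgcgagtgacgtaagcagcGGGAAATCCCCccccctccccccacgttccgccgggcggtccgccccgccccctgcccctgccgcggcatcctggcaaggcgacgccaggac
Nfkbie (chr17:45555580-45555699, plus strand): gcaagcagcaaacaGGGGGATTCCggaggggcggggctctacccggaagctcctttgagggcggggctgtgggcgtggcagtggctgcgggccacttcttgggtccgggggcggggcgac
In Nfkb2 a pair of marked runs lies in this stretch, and the one nearest to the start begins 11 bases before it. In Nfkbia the match to the consensus begins 29 bases before the start, in Rel 92 bases before it, and in Nfkbie 106 bases before it. In Bcl3 the consensus match covers bases 3 to 12 after the start, and the match to the shorter motif begins 104 bases before it. A motif match is a description of the letters and not a measured site, and the 5 genes that carry one did not share one pattern across the groups, as the values below show.

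The first question was how the members stood in IMQ-treated against untreated epidermis. In both genotypes Bcl3, Birc3, Nfkb1, Nfkbia and Relb stood higher under IMQ, with every one of the 4 IMQ libraries above every one of the 4 untreated ones. Nfkb2, Rel, Rela and Nfkbie overlapped between the treatments, and no member stood lower. These levels are CPM of the reads recovered from the normalised counts, scaled by TMM (trimmed mean of M-values) over all 8 libraries, since the authors scaled the treated and the untreated table separately. No test was made across the tables. The pattern of 5 of 9 members higher and 0 lower stands beside 27.1% of all 14614 tested genes that were higher without overlap and 23.7% that were lower.

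Bcl3 had the widest separation of the members. Its levels under IMQ were 196 and 156 CPM in the female and male labelled knockout and 95.9 and 128 CPM in the female and male control, against 38.3 and 22.9 CPM in the untreated labelled knockouts and 31.8 and 20.1 CPM in the untreated controls. The lowest IMQ library was above the highest untreated one by more than the span of the untreated libraries. The group means differed 5.83-fold in labelled knockouts and 4.31-fold in controls (log2 differences of 2.54 and 2.11), larger than the difference between the sexes in any group. By sex the log2 difference was 2.34 between the females and 2.75 between the males in labelled knockouts. In controls it was 1.58 and 2.64.

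Of the other inhibitors, Nfkbia had 1680 and 1659 CPM in the IMQ-treated labelled knockouts and 1447 and 1539 CPM in the IMQ-treated controls. In untreated epidermis it had 998 and 686 CPM in labelled knockouts and 978 and 888 CPM in controls. The treatments did not overlap, and the means differed 2.02-fold in labelled knockouts and 1.60-fold in controls. Nfkbie, which encodes a second cytoplasmic inhibitor, did not follow it. It had 37.4 and 38.6 CPM in the IMQ-treated labelled knockouts and 62.9 and 36.1 CPM in the IMQ-treated controls, against 72.6 and 50.7 CPM in the untreated labelled knockouts and 65.5 and 45.0 CPM in the untreated controls. The IMQ-treated control female lay among the untreated libraries, while the other 3 IMQ libraries were below all 4 of them. The log2 difference of the means, IMQ minus untreated, was -0.67 in labelled knockouts and -0.19 in controls. The control value turned to 0.21 without the IMQ-treated male and to 0.08 without the untreated female.

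Birc3 had 109 and 96.3 CPM in the IMQ-treated labelled knockouts and 107 and 109.6 CPM in the IMQ-treated controls. Untreated, it had 54.4 and 36.3 CPM in labelled knockouts and 49.5 and 45.6 CPM in controls. All 4 IMQ libraries lay within a band narrower than that of the untreated ones and well above it. The difference was 2.29-fold in labelled knockouts and 2.27-fold in controls.

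Among the subunits, Nfkb1 had 406 and 341 CPM in the IMQ-treated labelled knockouts and 299.6 and 255 CPM in the IMQ-treated controls, against 207 and 154 CPM in the untreated labelled knockouts and 207 and 127 CPM in the untreated controls. The order of the groups was the same in each sex under IMQ, and the treatments did not overlap. Relb, whose product pairs chiefly with the products of Nfkb2 and Nfkb1, had 61.6 and 75.3 CPM in the IMQ-treated labelled knockouts and 63.3 and 71.0 CPM in the IMQ-treated controls, against 42.3 and 37.1 CPM in the untreated labelled knockouts and 41.9 and 35.9 CPM in the untreated controls. The means differed 2.08-fold in labelled knockouts and 1.70-fold in controls for Nfkb1, and 1.71-fold and 1.72-fold for Relb.

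The transcripts of the other subunits overlapped between the treatments. Nfkb2 ranged from 125 to 144 CPM under IMQ and from 80.9 to 134 CPM untreated, Rela from 129 to 148 and from 137 to 198 CPM, and Rel from 300.2 to 423 and from 322 to 466 CPM. For Rel the IMQ-minus-untreated log2 difference was -0.39 in labelled knockouts and 0.03 in controls, and for Rela it was -0.21 and -0.25. For Nfkb2 it was 0.41 and 0.31. By sex the Nfkb2 difference was 0.11 between the females and 0.71 between the males in labelled knockouts. In controls it was -0.01 and 0.63. The sign of the control values was not stable to leaving out a library, with a range of -0.21 to 0.26 for Rel, -0.52 to 0.01 for Rela and -0.05 to 0.67 for Nfkb2. Nfkb2 shares exon bases with Psd on the opposite strand, and whether the counting used strand is not stated, so its reads may include some from Psd. The same limit holds for Bcl3, which shares exon bases with Gm16175 on the opposite strand, a gene not listed in the tables. Over the 9 members the median log2 difference was 0.77 in labelled knockouts and 0.68 in controls, against a median over all tested genes of -0.01 and 0.02. With a library left out the members' median ran from 0.63 to 0.92 in labelled knockouts and from 0.42 to 0.75 in controls. The lowest control value was that without the untreated male.

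Marker sums of other cells also differed between the treatments. The summed macrophage markers spanned 114 to 208 CPM in the 4 IMQ libraries and 63.0 to 92.3 CPM in the 4 untreated ones. Neutrophil markers (3 of the 5 listed) summed to 116 and 44.9 CPM in the IMQ-treated labelled knockouts and 20.0 and 38.7 CPM in the IMQ-treated controls, against 2.78 to 10.7 CPM in untreated epidermis. Langerhans and dendritic cell markers spanned 2046 to 3785 CPM under IMQ and 1559 to 2280 CPM untreated. The T cell markers (3 of the 5 listed) spanned 29.5 to 39.4 CPM under IMQ and 34.8 to 48.7 CPM untreated. Endothelial markers spanned 1.32 to 14.2 CPM under IMQ and 0.462 to 1.20 CPM untreated, without overlap. Dermal fibroblast markers spanned 61.6 to 2564 CPM under IMQ and 49.4 to 493 CPM untreated. The keratinocyte and B cell sums overlapped between the treatments. None of the markers in the tables was at 0 in both libraries of a group, and their part in the levels of the NF-kappaB genes was not tested.

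**Figure D1:**
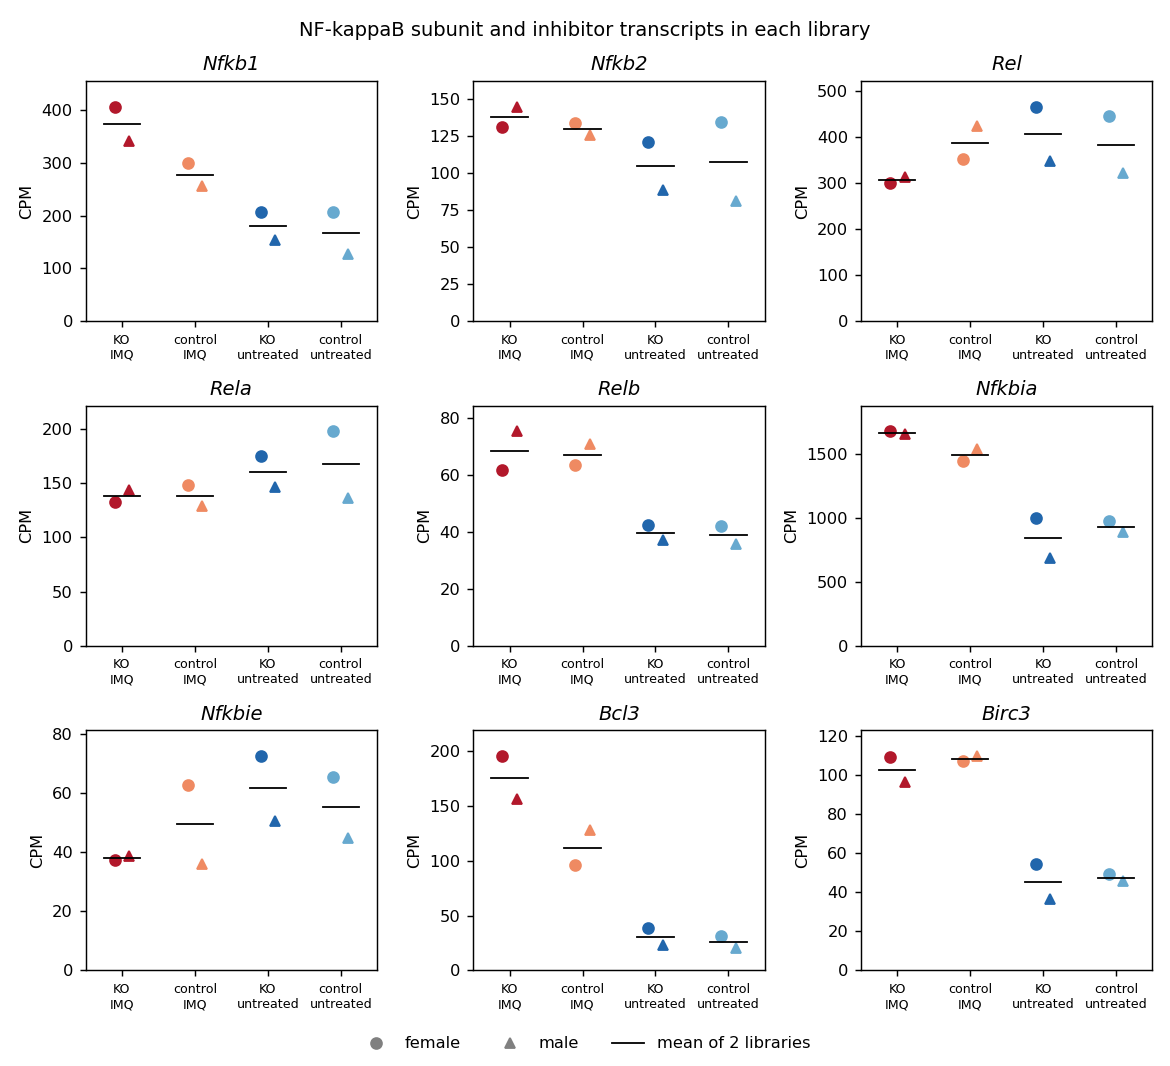
Level of each of the 9 transcripts in CPM (y axis from 0) in the 8 libraries, by group (x axis). Circles are females, triangles males and lines the mean of 2 libraries. For Bcl3, Birc3, Nfkb1, Nfkbia and Relb all 4 IMQ libraries sit above all 4 untreated ones.

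Levels were compared between genes per kilobase of the longest coding transcript. That length is 4117 bases for Nfkb1, whose exons together cover 12061, and 7466 bases for Rel by either count. The order of the genes below therefore depends on the length used, and no other length was tried. Nfkbia was the most abundant member in every library, at 1058 ± 9.35 CPM per kb in the IMQ-treated labelled knockouts and 946 ± 41.1 in the IMQ-treated controls, against 534 ± 140 in the untreated labelled knockouts and 591 ± 40.1 in the untreated controls (SD, n = 2 each). Below it the order differed between the treatments. In the IMQ-treated labelled knockouts Bcl3 (95.1 CPM per kb) came next, and then Nfkb1 (90.7), Rela (51.0), Rel (41.1), Nfkb2 (35.8), Birc3 (35.3), Relb (31.0) and Nfkbie (15.6). Of these neighbours Bcl3 and Nfkb1 overlapped between libraries, as did Nfkb2 and Birc3, and Birc3 and Relb. Within each library Bcl3 was above Nfkb1, while the other overlapping pairs changed places between the female and the male. In the IMQ-treated controls the order was Nfkb1 (67.4), Bcl3 (60.5), Rel (51.9), Rela (51.0), Birc3 (37.3), Nfkb2 (33.6), Relb (30.4) and Nfkbie (20.3), with overlap between neighbours from Nfkb1 down to Rela. Within each of these libraries Bcl3 was above Rel, while Nfkb1 and Bcl3 changed places between the sexes, as did Rel and Rela.

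In untreated epidermis Bcl3 was near the bottom. In the untreated labelled knockouts Rela (59.2 CPM per kb) came after Nfkbia, then Rel (54.4), Nfkb1 (43.8), Nfkb2 (27.2), Nfkbie (25.3), Relb (18.0), Bcl3 (16.5) and Birc3 (15.6). Among these neighbours Nfkb1 and Nfkb2 did not overlap, nor did Nfkbie and Relb, and the others did. In the untreated controls the order was Rela (61.6), Rel (51.4), Nfkb1 (40.6), Nfkb2 (28.0), Nfkbie (22.7), Relb (17.6), Birc3 (16.3) and Bcl3 (14.0), and each neighbouring pair overlapped. Overlap was judged across the female and the male library, so it does not describe the order within a library. Within each untreated control library the order from Rela down to Birc3 was the same. Only Bcl3 changed place, with 17.2 against 17.0 CPM per kb for Birc3 in the female. Within each untreated labelled knockout library the order from Rela down to Nfkbie was the same.

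The second question was whether the members differed between labelled knockouts and controls under IMQ. None of the 9 passed the test (limma, Benjamini-Hochberg adjusted p under 0.05 over 14614 genes). None did with edgeR or DESeq2 on the recovered reads, and 0 of 9 had an unadjusted p under 0.05, against 21.95% of all tested genes. Of all tested genes 0.438% were called. In the values, Nfkb1, Nfkbia and Bcl3 were higher in both labelled knockout libraries than in both controls, Rel was lower in both, and the other 5 overlapped. Both labelled knockouts were above both controls in 26.6% of all tested genes and below both in 26.4%, so a count of 3 and 1 of 9 is near that background. With 2 libraries against 2 an exact permutation test of a single gene cannot give a two-sided p below 0.333. Under IMQ the summed keratinocyte markers were also lower in both labelled knockouts, with 15870 and 20980 CPM against 22170 and 25890 CPM in the controls, and so were the T cell markers, with 29.5 and 32.0 CPM against 39.4 and 32.9 CPM. The endothelial markers were lower in both as well, with 1.32 and 1.78 CPM against 14.2 and 2.15 CPM. The neutrophil markers were higher in both, with 116 and 44.9 CPM against 20.0 and 38.7 CPM. The sums of the other listed cell types overlapped.

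Bcl3 had 6042 and 4762 normalised counts in the IMQ-treated labelled knockout female and male, against 2926 and 3937 in the control female and male. The groups did not overlap, and the log2 fold change was 1.05 between the females and 0.27 between the males. The fitted log2 fold change was 0.66 (SE 0.31, 95% interval -0.06 to 1.38, limma adjusted p = 0.257). The summed neutrophil markers given above were also highest in the labelled knockout female. In untreated epidermis Bcl3 was higher in both females, while the neutrophil sums were higher in both males. The part of neutrophils in the level of Bcl3 was not tested.

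Nfkb1 had 12552 and 10381 normalised counts in the IMQ-treated labelled knockouts, against 9137 and 7863 in the controls. The difference was alike in the sexes, with log2 fold changes of 0.46 in females and 0.40 in males. The fitted value was 0.43 (SE 0.25, 95% interval -0.16 to 1.02, limma adjusted p = 0.35). Rel, the gene of the c-Rel subunit that lymphoid cells are rich in, had 9270 and 9562 in labelled knockouts and 10744 and 13033 in controls. Both labelled knockouts were below both controls, and the fitted log2 fold change was -0.33 (SE 0.21, 95% interval -0.81 to 0.15, limma adjusted p = 0.382). With a library left out it ran from -0.47 to -0.19, and the T cell marker sums given above were also lower in both labelled knockouts. The B cell marker sums (2 of the 3 listed) overlapped, with 2.25 and 0.593 CPM in labelled knockouts and 0.572 and 1.26 CPM in controls. Between the IMQ-treated controls Rel was higher in the male, and the T cell sum was higher in the female, at 39.4 against 32.9 CPM. Between the IMQ-treated labelled knockouts both were higher in the male. In untreated epidermis Rel was higher in both females, and the T cell sums were higher in both males. The part of these cells in the level of Rel was not tested.

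For Nfkbia the IMQ-treated labelled knockouts had 51866 and 50557 normalised counts and the controls 44130 and 47402. The groups stood apart by a small margin, with a log2 fold change of 0.16 (SE 0.19, 95% interval -0.27 to 0.60). Nfkbie had 1155 and 1177 in labelled knockouts and 1918 and 1112 in controls. The control female was the high library, and the log2 fold change was -0.73 between the females and 0.08 between the males. The same control female had the highest sums under IMQ of Langerhans and dendritic cell markers (3785 CPM), macrophage markers (208 CPM) and endothelial markers (14.2 CPM). For Nfkb2, Rela, Relb and Birc3 the log2 fold changes lay between -0.08 and 0.09, each with its interval spanning 0 and reaching no further than -0.52 and 0.66. Over the 9 members the median was 0.02, against -0.01 over all tested genes.

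In untreated epidermis the labelled knockout and control libraries overlapped for all 9 members. Both labelled knockouts were above both controls in 17.4% and below both in 16.4% of all tested genes. No member passed the limma test, with edgeR or DESeq2 giving 0 as well, and 0 of 9 had an unadjusted p under 0.05. Over all tested genes limma called 0%, with 652 at an unadjusted p under 0.05, edgeR called 0 and DESeq2 called 87. The fitted log2 fold changes ran from -0.15 for Nfkbia to 0.25 for Bcl3, with a median of 0.06, and each limma adjusted p was 1.00.

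The spread in untreated epidermis ran with sex more than with genotype. Nfkb1 had 7836 and 5841 normalised counts in the labelled knockout female and male, against 7723 and 4735 in the control female and male, and Nfkb2 had 4567 and 3357 against 5009 and 3006. Rela had 6631 and 5570 in labelled knockouts and 7390 and 5089 in controls, and Rel had 17619 and 13184 in labelled knockouts and 16641 and 11956 in controls. In each of these 4 subunits the females of the 2 genotypes lay closer to each other than to the male of their own group.

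The difference between the genotype effects, that under IMQ minus that untreated, was called for none of the 9 members, and limma called 0% of all tested genes (1472 at an unadjusted p under 0.05, edgeR 0, DESeq2 98). None of the 9 had an unadjusted p under 0.05. The values ran from -0.51 for Nfkbie (SE 0.42) to 0.41 for Bcl3 (SE 0.44). With a library left out they ran from -0.90 to -0.12 for Nfkbie, from 0.039 to 0.78 for Bcl3 and from 0.042 to 0.58 for Nfkbia. For Rel it was -0.44 (SE 0.29, limma adjusted p = 0.611), with a range of -0.68 to -0.20 when a library was left out. The control genotype label differs between the treatments, so this contrast compares labelled Ovol1 -/- with +/+ in one and with +/- in the other.

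**Figure D2:**
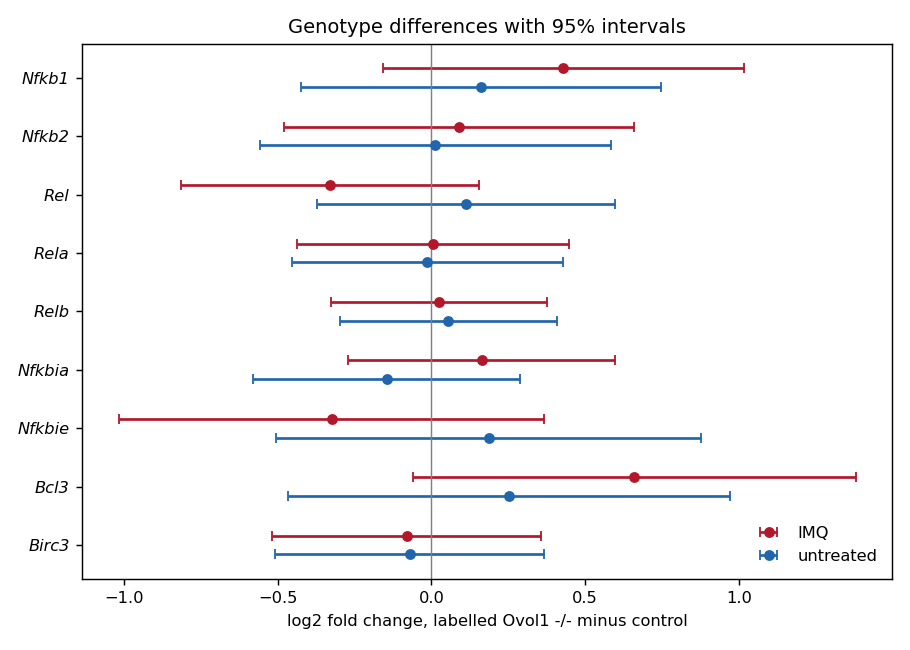
Fitted log2 fold change of each member, labelled Ovol1 -/- minus control (x axis), under IMQ (red, upper of each pair) and untreated (blue, lower). Points are limma estimates from 2 against 2 libraries and bars 95% intervals, and all 18 intervals include 0.

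Shares within a library do not depend on how libraries were scaled, so the make-up of the 5 subunit transcripts was set out per library, per kilobase. The size of each share does depend on the transcript length used for each gene. Nfkb1 made up 39.5% and 33.2% of the subunit transcripts in the IMQ-treated labelled knockout female and male and 30.6% and 26.9% in the IMQ-treated controls, against 22.1% and 21.0% in the untreated labelled knockouts and 21.2% and 19.1% in the untreated controls. All 4 IMQ libraries were above all 4 untreated ones, and under IMQ both labelled knockouts were above both controls. Rela, the main transactivating subunit, held 19.6% and 21.2% in the IMQ-treated labelled knockouts and 22.9% and 20.5% in the IMQ-treated controls, against 28.3% and 30.4% and then 30.8% and 31.2% in untreated labelled knockouts and controls. Its share was lower in each IMQ library than in each untreated one and overlapped between the genotypes under IMQ.

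The share of Rel was 16.1% and 16.9% in the IMQ-treated labelled knockouts and 19.8% and 24.6% in the IMQ-treated controls, against 27.4% and 26.2% in the untreated labelled knockouts and 25.2% and 26.6% in the untreated controls. Again the 4 IMQ libraries lay below the 4 untreated ones, with the labelled knockouts lowest. Relb had 11.2% to 13.9% in the IMQ libraries and 8.02% to 10.04% in the untreated ones, while Nfkb2 overlapped, with 13.6% to 15.1% under IMQ and 12.9% to 14.7% untreated. Shares of a whole are tied to each other, so a higher share of Nfkb1 lowers the others.

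The ratio of Bcl3 to Rel, in log2 of reads per kb, was 1.40 and 1.01 in the IMQ-treated labelled knockouts and 0.14 and 0.29 in the IMQ-treated controls. In untreated epidermis it was -1.59 and -1.91 in labelled knockouts and -1.80 and -1.99 in controls. The groups did not overlap under IMQ and did untreated. The log2 ratio of Nfkb1 to Rel was 1.30 and 0.98 in the IMQ-treated labelled knockouts and 0.63 and 0.13 in the IMQ-treated controls, against -0.31 and -0.32 in the untreated labelled knockouts and -0.25 and -0.48 in the untreated controls. These ratios were picked after the values of the single genes were seen, join a member that was higher to one that was lower, and are given without a test.

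**Figure D3:**
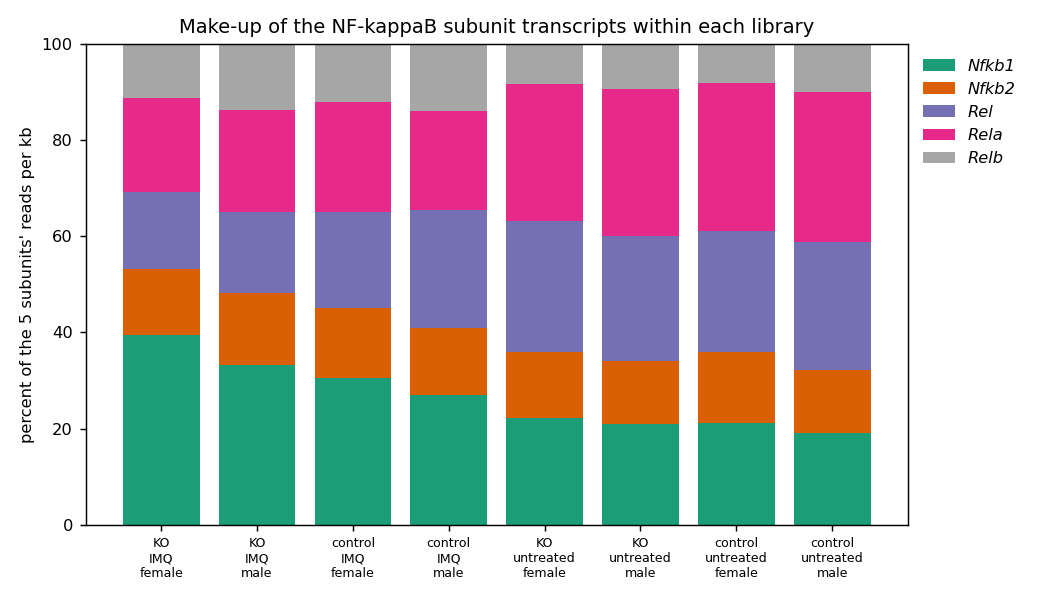
Share of each subunit transcript in the summed reads per kb of the 5 subunits (y axis, percent) in each of the 8 libraries (x axis). Nfkb1 (green) is widest in the IMQ libraries, at 26.9% to 39.5%, and Rela (pink) and Rel (violet) are wider in the untreated libraries.

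Sex was set out as a separate comparison, added after the values were seen, because each group holds 1 female and 1 male. In untreated epidermis both females were above both males for all 9 members, a pattern found in 23.3% of all tested genes. None of the 9 passed the test (limma with a sex term for each treatment), which called 0.0547% of all genes (8 genes, with 1379 at an unadjusted p under 0.05), and edgeR called 0 members too. At an unadjusted p under 0.05 were 7 of the 9, against 9.44% of all tested genes. The members were seen to be higher in females before this was fitted, and they share the same 4 libraries, so these 9 are not separate observations.

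The log2 difference, female minus male, ran from 0.21 for Relb to 0.70 for Bcl3, with a median of 0.45, against 0.00 over all tested genes. Bcl3 had 1449 normalised counts in the untreated labelled knockout female and 869 in the male, and 1187 and 747 in the control female and male (log2 difference 0.70, SE 0.19, limma adjusted p = 0.424). Nfkb2 had the next highest value, 0.59 (SE 0.12, limma adjusted p = 0.351). Nfkb1 was at 0.56 (SE 0.12, limma adjusted p = 0.347). For Nfkbia the difference was uneven, 0.53 in labelled knockouts and 0.14 in controls, where the females had 37771 and 36515 and the males 26092 and 33034 in labelled knockouts and controls.

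Under IMQ no member had both females above both males, against 12.5% of all tested genes, and 8 of the 9 overlapped between the sexes. Relb was lower in both females, with 1903 and 1931 normalised counts in the labelled knockout and control females and 2294 and 2187 in the males. The share of all tested genes that were lower in both females was not counted, so the place of Relb among them is not known. No member passed the limma test there (0 of 9 at an unadjusted p under 0.05), which called 0.0821% of all genes. The median log2 difference was -0.03. Whether the sex difference itself differed between the treatments was not tested.

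Marker sums of other cells ran with sex in the untreated libraries. Langerhans and dendritic cell markers summed to 2280 CPM in the female and 1559 CPM in the male labelled knockout, and to 2224 and 1679 CPM in the control female and male. Macrophage markers summed to 92.3 and 70.3 CPM in the labelled knockouts and 85.5 and 63.0 CPM in the controls. The keratinocyte markers were also higher in the females, at 21820 and 19210 CPM in labelled knockouts and 23950 and 19570 CPM in controls. Dermal fibroblast markers ran the other way, with 49.4 CPM in the female and 493 CPM in the male labelled knockout and 107 and 458 CPM in the controls. T cell markers were also higher in the males, with 43.0 CPM in the female and 48.7 CPM in the male labelled knockout and 34.8 and 45.0 CPM in the control female and male. So were neutrophil markers, with 5.04 and 10.7 CPM in labelled knockouts and 2.78 and 7.36 CPM in controls. The part of these cells in the members' levels was not tested, and sex cannot be told apart from the single animal or pool behind each library.

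**Figure D4:**
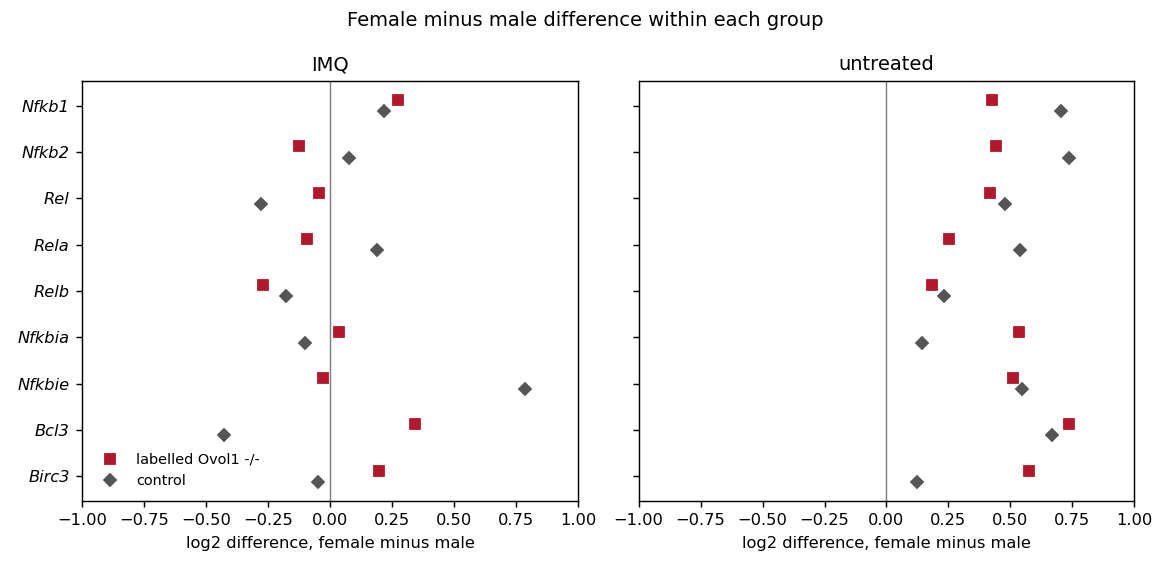
Female minus male difference in log2 normalised count (x axis) for each member, under IMQ (left) and untreated (right), in labelled Ovol1 -/- (red squares) and control (grey diamonds). Untreated, all 18 values are above 0, and under IMQ they fall on both sides of 0.

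The rest of the pathway was taken from lists of general knowledge. No gene of any list passed the limma test in either genotype contrast or in their difference, so the genes named here are those with the largest changes among genes at an unadjusted p under 0.05 under IMQ. Of the 16 further inhibitors and deubiquitinases 1 reached that p, beside 21.95% of all tested genes. Tax1bp1, an adaptor of the deubiquitinase A20, had 10250 and 10830 normalised counts in the IMQ-treated labelled knockouts and 15170 and 12730 in the controls (log2 fold change -0.40, limma adjusted p = 0.143). None of the 11 kinases reached an unadjusted p under 0.05 under IMQ, beside the same share. In the IMQ-against-untreated levels, 6 of the 16 inhibitors were higher and 1 lower without overlap, and 5 and 3 of the 11 kinases, beside 27.1% and 23.7% of all tested genes.

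Among 23 adaptors and ligases, 3 were higher and 1 lower at that level, which 21.95% of all tested genes reached in either direction. Card14, a keratinocyte scaffold protein gene in which human psoriasis mutations are known, had 1335 and 2366 normalised counts in the IMQ-treated labelled knockouts and 3189 and 3970 in the controls (log2 fold change -1.0, limma adjusted p = 0.110). Malt1, whose product is the protease partner of CARD proteins, had 12010 and 12310 against 8567 and 6553 (0.70, limma adjusted p = 0.177). The groups did not overlap for either gene, and the 2 stood on opposite sides. Of the 14 tested receptors the one at that level was Tlr3, a sensor of double-stranded RNA, with 130.2 and 88.4 in labelled knockouts and 267 and 170.1 in controls (-0.98, limma adjusted p = 0.129).

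Of 19 known NF-kappaB targets, 5 were higher and 3 lower under IMQ at an unadjusted p under 0.05, beside 21.95% of all tested genes in either direction, and none was called. Csf2, the gene of a cytokine for granulocytes and macrophages, had 884 and 1291 normalised counts in the IMQ-treated labelled knockouts and 155 and 273 in the controls (log2 fold change 2.37, SE 0.96, limma adjusted p = 0.211). Vcam1, an adhesion molecule gene, had 13.9 and 15.2 in labelled knockouts and 140.4 and 26.3 in controls (-2.00, SE 0.71, limma adjusted p = 0.171). The control female held the highest Vcam1 value, and it also had the highest endothelial marker sum, 14.2 CPM against 0.462 to 2.15 CPM in the other 7 libraries. Without overlap, 9 of the 19 targets were higher under IMQ than untreated and 0 were lower, beside 27.1% and 23.7% of all tested genes.

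In the list of 12 Rel-homology relatives and BCL-3 partners, 2 were lower at an unadjusted p under 0.05, beside 21.95% of all tested genes in either direction. Nfatc2, a transcription factor gene with a Rel-homology domain, had 515 and 543 normalised counts in the IMQ-treated labelled knockouts and 940.5 and 646 in the controls (log2 fold change -0.56, limma adjusted p = 0.155). In this list 6 genes were lower in IMQ than in untreated epidermis without overlap, beside 23.7% of all tested genes. The medians of the genotype log2 fold changes under IMQ were -0.13 for inhibitors, -0.03 for kinases, -0.02 for adaptors, -0.20 for receptors, 0.29 for targets and -0.04 for the last list, against -0.01 over all tested genes.

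The members that varied most around the mean of their table were Bcl3 and Nfkbie. The genes with the profile nearest to that of Bcl3 over the 8 libraries were Polr1e (root mean square difference 0.0705 in log2 units) and Hk2 (0.0747), against a median of 0.441 over 13898 genes. For Nfkbie they were B4galt5 (0.0406) and Emp3 (0.0638), against a median of 0.376. The named genes were picked as the nearest of all those searched, so a difference below the median was certain and is no sign of a link. This is a description of 8 profiles centred within each table, and it leaves out the level difference between the treatments.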

How the data were processed

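The authors deposited a signal, counts of reads over the size factor of each library, with separate scaling of the treated and the untreated table. Per the submitters' processing notes, the tools were STAR 2.5.2a, Trimmomatic 0.35, R 3.6.1 and DESeq2 1.24.0 with mm10. The read counter, the annotation and the gene filter were not given in sources used here. Every value was a whole multiple of 1 step per library within 0.001 read, which gave the recovered reads.

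Genotype contrasts were fitted with limma 3.58.1 (R 4.3.3) on log2(deposited value + 1), with 4 group means over 8 libraries (4 residual degrees of freedom), trend and robust moderation. Genes needed a mean of at least 10 in either table (14614 genes), and p-values were adjusted by Benjamini-Hochberg with a threshold of 0.05. Fold changes of low genes are understated by the added 1. P-values measure only the spread between these libraries. Levels across the tables are CPM with TMM factors, and 0.5 CPM was added before log2. Alternatives were pseudocounts of 0.5 and 5, other filters and scalings, plain moderation, the replicate block (sex), edgeR 4.0.16, DESeq2 1.42.0 and each library left out. The labels' replicate numbers follow sex and do not say that a pair shares a litter. Female-minus-male differences over all genes correlated between groups by 0.145 to 0.463 in the 6 pairs of groups. Libraries that share only their sex could also correlate, so this does not show that they are pairs. The main fit held no term for sex, and the replicate block was run only as an alternative.

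Members and lists were chosen with earlier results of these data known. All 9 members are named. From each list the 2 genes with the largest change at an unadjusted p under 0.05 under IMQ are named, and for the 2 members with the widest spread the 2 genes of nearest profile. A gene that met the rule is not reported here. The sex comparison, the make-up and the ratios were added after the values were seen. Gene positions and lengths come from GENCODE vM21 (GRCm38) and promoters from RefSeq. The fit was tested on simulated data. Tables and plots were made in Python 3.11.15 (pandas 2.3.3, numpy 2.4.6, matplotlib 3.10.9).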

Additional observations from a re-analysis of the deposited data

Results flagged for a closer look

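Rel was flagged because its genotype difference pointed one way under IMQ and the other way untreated. The share of all tested genes that meet this rule was not counted. Under IMQ it was lower in the labelled knockout of both sexes, by log2 -0.21 between the females and -0.45 between the males. Untreated it was higher in the labelled knockout of both sexes, by 0.08 and 0.14. The difference of the fitted effects was -0.44 (SE 0.29, limma adjusted p = 0.611), so it did not pass the test, and it ran from -0.68 to -0.20 with a library left out. The value under IMQ ran from -0.47 to -0.19. The untreated value ran from -0.13 to 0.35, so its direction turned, and the untreated labelled knockouts and controls overlapped. The genotype label of the controls also differs between the treatments, and its part was not tested.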

How the results depend on the processing

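None of the 9 members was called in a genotype contrast under any of the alternatives run, the replicate block among them, which used the pairing by sex and left each limma value as it was (for Bcl3 under IMQ 0.66, limma adjusted p = 0.188 with the block and 0.257 without it; for Nfkb1 0.132 and 0.35). Over all genes the calls under IMQ were 64 in limma, 358 with the replicate block, 43 in edgeR, 1247 in DESeq2 and 0 with plain moderation, and 0 to 299 with a library left out; untreated they were 0 in limma, 8 with the replicate block, 5 with a pseudocount of 5 and 87 in DESeq2. The sign of small fold changes turned. For Rela under IMQ edgeR gave -0.0060. For Nfkb2 untreated TMM scaling gave -0.013, edgeR -0.042, edgeR with the block -0.029 and DESeq2 -0.037. For the difference of effects DESeq2 gave 0.028 for Relb and 0.020 for Birc3, and TMM scaling 0.013 for Birc3. With a library left out, the IMQ values ran from -0.090 to 0.099 for Rela, -0.11 to 0.16 for Relb, -0.72 to 0.068 for Nfkbie and -0.18 to 0.018 for Birc3. Untreated they ran from -0.19 to 0.51 for Nfkb1, -0.36 to 0.38 for Nfkb2, -0.13 to 0.35 for Rel, -0.28 to 0.26 for Rela, -0.061 to 0.17 for Relb, -0.41 to 0.12 for Nfkbia, -0.087 to 0.46 for Nfkbie, -0.12 to 0.62 for Bcl3 and -0.36 to 0.22 for Birc3. The difference of effects ran from -0.085 to 0.62 for Nfkb1, -0.29 to 0.45 for Nfkb2, -0.25 to 0.29 for Rela, -0.17 to 0.10 for Relb and -0.30 to 0.28 for Birc3. Where a library was left out, the fit takes the spread of its group from the other groups. The cause of these turns was not tested.

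With the deposited values of the separately scaled tables in place of CPM, the median member difference of IMQ minus untreated was 0.48 in labelled knockouts and 0.40 in controls, and the median over all genes was -0.32 and -0.26. The count of members higher under IMQ was 5 under each scaling, and 6 without the untreated control female. The count of members higher in untreated females was 9 under each scaling. Leaving out a library cannot undo groups that stand apart, so it can only raise these counts and is no check of them. The control difference of IMQ minus untreated for Rel turned to -0.03 with plain CPM, -0.0025 with median-of-ratios factors and -0.25 with the deposited values. Each group has 2 libraries of 28.6 M reads or more, and no alternative with fewer reads was run.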
